A study of Mus musculus with 42 samples.

Results

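Thy1+ and c-Kit+ cells of control testes were compared across all expressed genes, with 3 RNA-seq libraries of each population among the 12 RNA-seq libraries and 42 samples of the series. The members were chosen by their labels alone: the 6 libraries named as control and as Thy1 or c-Kit, all from testes of male C57BL/6J mice at 10 days post-partum (dpp). The genotype of all 6 is given as *Ddx4-Cre/Chd8+/F*, so that both populations carry 1 floxed allele of *Chd8*, which encodes a chromatin remodeler, together with a Cre recombinase under the *Ddx4* promoter, which is active in germ cells. The controls are therefore not wild type, and both populations share the same genotype. In the paper this Cre removes floxed *Chd8* from the germline of mutants before birth. Its effect on the 1 floxed allele of the control germ cells was not tested. Before sorting, interstitial cells were reduced by collagenase, Sertoli cells by straining and other somatic cells by letting them settle and attach to plates. The remaining cells were sorted with magnetic beads, c-Kit+ cells first and Thy1+ cells afterwards from what had flowed through. The Thy1+ fraction was thus depleted of c-Kit+ cells before it was collected. The paper checked both fractions by immunostaining, RT-qPCR and RNA-seq and judged their purity largely comparable to the high purity of earlier studies. Its RNA-seq check compared representative stage genes between the same control populations. The labels do not say whether the 3 libraries of a group came from separate pups or pools, and p-values then measure only the spread between these samples.

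Spermatogonia are the mitotic germ cells at the base of the seminiferous tubule. Undifferentiated spermatogonia include the stem cells, which depend on GDNF from Sertoli cells and receive it through the receptor pair GFRA1 and RET. Under retinoic acid they become differentiating spermatogonia, which display the receptor tyrosine kinase c-Kit, divide several times and then enter meiosis. The comparison addresses this step in the presence of CHD8, but in sorted fractions that also held transcripts of other testis cells, many of them at levels that differed between the populations. In these bulk libraries a difference between the spermatogonia and a difference in the share of other cells cannot be told apart.

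Library totals ran from 32937873 to 45396233 counts, higher in every Thy1+ library than in every c-Kit+ library, and 19641 to 20403 genes had at least 1 count. The 10 most abundant genes held 3.54% to 3.99% of a library. The log2 levels correlated at 0.978 to 0.987 between libraries of the same population and at 0.923 to 0.961 between populations, across genes, which are not independent replicates. *Chd8* itself was at 287.9, 275.8 and 263.3 CPM (counts scaled to the effective library size) in Thy1+ libraries and at 265.3, 308.2 and 273.2 CPM in c-Kit+ libraries, values that overlap. Germ cells were present in all 6 libraries, since the germ cell RNA helicase *Ddx4* ranged from 277.0 to 461.7 CPM.

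Despite the steps taken to remove somatic cells, the markers of other testis cells did not stay level between the populations, and they are given before the genes because they move with many of them. The summed level of 9 germ cell markers was 2054, 2992 and 2116 CPM in Thy1+ libraries and 3288, 3825 and 3139 CPM in c-Kit+ libraries, lower in every Thy1+ library. The 8 stromal markers, among them the collagen genes *Col1a1*, *Col1a2* and *Col3a1*, summed to 14453, 11386 and 14847 CPM in Thy1+ libraries against 2305, 2155 and 1817 CPM in c-Kit+ libraries. Peritubular myoid markers (6 genes, 274.0 to 504.1 against 47.5 to 65.0 CPM), endothelial markers (8 genes, 197.3 to 270.2 against 57.7 to 86.8 CPM), macrophage markers (8 genes, 94.7 to 184.9 against 19.2 to 53.8 CPM) and T cell markers (7 genes, 17.8 to 22.7 against 7.55 to 9.15 CPM) were also higher in every Thy1+ library. Most of the endothelial sum was *Cdh5*, with a mean of 191.4 against 35.5 CPM. By the rule given below, 3 of the 8 endothelial markers were called higher in Thy1+ cells, against 20.7% of all genes. *Pecam1* overlapped at 5.59 to 10.6 against 5.22 to 8.43 CPM. Of the 7 T cell markers 5 were called higher in Thy1+ cells, and 1 had a log2 difference in the other direction. *Ptprc* held 8.58 CPM of their mean sum of 20.1 CPM in Thy1+ libraries. Fibroblasts and T cells are known to carry the Thy1 antigen as well. In the c-Kit+ libraries 2 other cell types stood higher, Leydig cells with 7 markers (648.7 to 1246 against 245.0 to 445.5 CPM) and mast cells, which display c-Kit, with 8 markers (37.2 to 51.2 against 12.1 to 17.6 CPM). Sertoli markers (10 genes) ranged from 230.6 to 844.7 CPM in Thy1+ and from 228.4 to 529.0 CPM in c-Kit+ libraries and overlapped, with 0 of 10 called, but 5 higher in c-Kit+ cells without Thy1+ replicate 1. Markers of late spermatocytes and spermatids (10 genes, 17.2 to 24.4 against 22.8 to 26.5 CPM) and of erythroid cells (5 genes, 1.88 to 2.40 against 1.82 to 2.17 CPM) overlapped too. No marker was at 0 in all 6 libraries, but 2 mast cell, 2 T cell, 4 erythroid and 6 late germ cell markers were under 1 CPM in all of them. The part of these cells in the differences below was not tested, and in bulk RNA fewer cells of a type and less RNA per cell cannot be told apart.

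**Figure D1:**
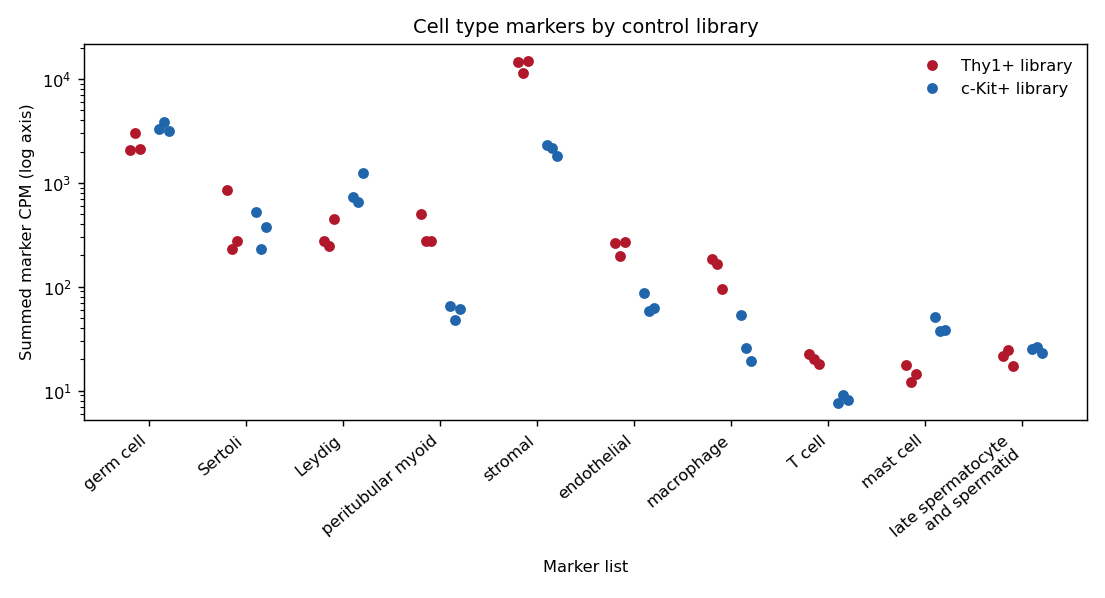
Summed CPM (log axis) of the markers of 10 cell types in each of the 3 Thy1+ and 3 c-Kit+ control libraries. Each point is a library. Stromal, peritubular myoid, endothelial, macrophage and T cell sums are higher in all Thy1+ libraries, germ cell, Leydig and mast cell sums in all c-Kit+ libraries, and Sertoli sums overlap.

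Of 17350 genes tested with edgeR's quasi-likelihood test, 3594 (20.7%) were higher in Thy1+ cells and 1229 (7.08%) were higher in c-Kit+ cells. A gene is called here at a Benjamini-Hochberg adjusted p under 0.05 and a log2 difference over 0.5 in size, and every difference is Thy1+ minus c-Kit+. The libraries of both populations did not overlap for 53.5% of the genes tested. Both directions differed in size. Among genes higher in Thy1+ cells the median log2 difference was 1.35 in size, 937 of 3594 (26.1%) exceeded 2 and 267 exceeded 3. Among genes higher in c-Kit+ cells the median was 0.73 in size, 27 of 1229 (2.2%) exceeded 2 and 4 exceeded 3, the mast cell protease *Cma1* and *Fam177a2*, *Gm2446* and *Klk1b24*. Of these, *Fam177a2* was at 10.6, 7.79 and 0.347 CPM in the c-Kit+ libraries, and *Gm2446* and *Klk1b24* were under 2 CPM in all of them. The genes higher in Thy1+ cells together averaged 222106 CPM in Thy1+ libraries and 86311 CPM in c-Kit+ libraries, and the genes higher in c-Kit+ cells to 55773 CPM and 89550 CPM.

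The split between both directions depended on the scaling. With trimmed mean of M-values (TMM) scaling the median of all genes was 0.03. When libraries were instead scaled to the summed counts of the 9 germ cell markers, which holds these markers level between the populations by construction, the median of all genes moved to 0.58 and the split became 6957 genes (40.1%) higher in Thy1+ cells to 73 (0.421%) higher in c-Kit+ cells. With library size only it was 3252 to 1851. Germ cell scaling moved differences towards Thy1+ cells by a similar amount across genes, with *Gfra1* going from 4.18 to 4.74 and *Kit* from -1.19 to -0.70. All 3594 genes called higher in Thy1+ cells were still called, which is no test of them, since the shift favours that side. Of the 1229 genes called higher in c-Kit+ cells 72 were still called and 128 changed sign. The 72 and 1 further gene make up the 73. They include 10 genes of the role lists described below (*Kit*, *Stra8*, *Meioc*, *Crabp1*, *Sycp3*, *Hormad1*, *Mei1*, *Prdm9*, *Majin* and *Spdya*), and 8 Leydig and mast cell markers (*Cyp11a1*, *Cyp17a1*, *Hsd3b1*, *Insl3*, *Cma1*, *Cpa3*, *Mcpt4* and *Tpsb2*). Differences below are on the TMM scale unless the germ cell scale is named, and counts on the germ cell scale stand against its own 40.1% and 0.421% of all genes.

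**Figure D2:**
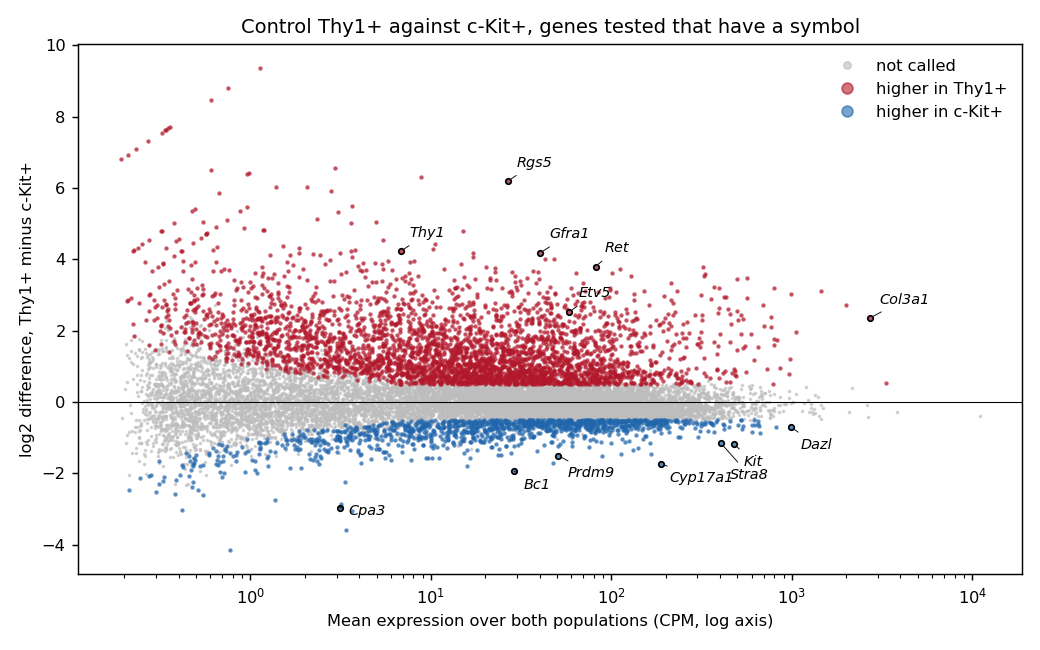
Log2 difference between Thy1+ and c-Kit+ control libraries (vertical axis) against the mean level over both populations in CPM (log axis), 1 point per tested gene that has a symbol, coloured by call. The 3594 genes higher in Thy1+ cells spread further from 0 than the 1229 higher in c-Kit+ cells, with medians of 1.35 and 0.73 in size.

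The genes by which the cells were selected are a check of the labels. *Thy1*, the antigen of the Thy1 beads, was at 14.8, 11.9 and 12.0 CPM in Thy1+ libraries and at 0.940, 0.693 and 0.434 CPM in c-Kit+ libraries, a log2 difference of 4.22 ± 0.28 (SE). *Kit*, the receptor for stem cell factor and the antigen of the c-Kit beads, was at 177.6, 399.4 and 302.9 CPM in Thy1+ libraries and at 661.7, 722.3 and 623.9 CPM in c-Kit+ libraries, a log2 difference of -1.19 ± 0.25. Both followed the labels in every library. *Thy1* stayed under 1 CPM in the c-Kit+ libraries, while *Kit* was still counted at least 7660 times in each Thy1+ library.

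Of the genes of the stem cell state, 16 of 17 tested (18 were listed) were higher in Thy1+ cells, against 20.7% of all genes, with a median log2 difference of 2.29 against 0.03. *Gfra1*, the GDNF co-receptor, was at 97.8, 77.0 and 54.4 CPM in Thy1+ libraries and at 3.99, 4.39 and 4.23 CPM in c-Kit+ libraries. The lowest Thy1+ library lay far above the highest c-Kit+ library, and the log2 difference was 4.18 ± 0.22 (edgeR quasi-likelihood adjusted p = 1.67e-05). *Ret*, the signalling receptor that pairs with it, was at 193.8, 155.3 and 109.1 CPM against 10.4, 10.7 and 11.8 CPM, also without overlap, with a log2 difference of 3.80 ± 0.21 (edgeR adjusted p = 1.67e-05). Both parts of the GDNF receptor thus had under 12 CPM in the c-Kit+ cells. For both genes replicate 1 was the highest of the Thy1+ libraries and replicate 3 the lowest.

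Transcription factors that act downstream of GDNF were higher in Thy1+ cells too, by less. *Etv5*, which stem cells need for self-renewal, was at 123.5, 90.9 and 84.8 CPM against 18.9, 18.3 and 14.7 CPM (log2 2.53 ± 0.17). *Bcl6b*, another such factor, was at 37.9, 33.6 and 23.7 CPM against 9.55, 8.02 and 8.42 CPM (log2 1.87 ± 0.19). *Id4*, an inhibitor of differentiation enriched in stem cells, was at 24.1, 14.5 and 11.6 CPM against 2.88, 2.34 and 2.78 CPM (log2 2.65 ± 0.29). None of the 3 overlapped between populations. Rarer transcripts of the same list differed as strongly: *Nanos2*, an RNA-binding protein that holds male germ cells undifferentiated, was at 3.69, 2.86 and 2.14 CPM against 0, 0.231 and 0.174 CPM (log2 4.39 ± 0.64), and the T-box factor *Eomes* was at 5.82, 3.52 and 4.14 CPM against 0.822, 0.693 and 1.25 CPM (log2 2.29 ± 0.32). *Lhx1* (log2 3.86) and *T* (log2 4.17), which encodes brachyury, were picked out after their values were seen and show the same. The list also holds *Plvap* (log2 2.21), which is best known from endothelium. *Shisa6*, a membrane protein used as a stem cell marker, was the only tested member not called, at 15.6, 8.09 and 5.72 CPM against 12.3, 5.48 and 7.67 CPM (log2 0.21, edgeR adjusted p = 0.709). *Pdx1*, at no more than 0.282 CPM in any library, was below the filter. With 1 library left out, 14 to 16 members were called. Under germ cell scaling, which moves differences towards Thy1+ cells, 16 were called.

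Genes listed for the progenitor state, that of undifferentiated spermatogonia about to differentiate, were called in both directions with TMM scaling. Of 18 tested, 7 were higher in Thy1+ cells and 3 in c-Kit+ cells, against 20.7% and 7.08% of all genes, with a median of 0.32. The list also holds markers of undifferentiated spermatogonia in general, such as *Zbtb16* and *Lin28a*, so its counts do not stand for the progenitor state alone. Under germ cell scaling 12 were higher in Thy1+ cells and 0 in c-Kit+ cells, against 40.1% and 0.421% of all genes, and the median was 0.84 against 0.58 for all genes. *Zbtb16*, which encodes PLZF, was at 249.0, 232.7 and 192.2 CPM in Thy1+ and at 107.9, 114.6 and 104.2 CPM in c-Kit+ libraries, without overlap (log2 1.04 ± 0.11, edgeR adjusted p = 1.73e-04). Its level thus remained over 100 CPM in the c-Kit+ cells, unlike those of *Gfra1* and *Ret*. *Nanos3*, a relative of *Nanos2*, was at 8.19, 5.12 and 5.64 CPM against 1.62, 1.73 and 1.33 CPM (log2 2.02), and the stress-induced inhibitor of mTOR signalling *Ddit4* was at 77.4, 38.0 and 45.6 CPM against 23.5, 12.3 and 24.3 CPM (log2 1.42). *Ccnd2*, which encodes cyclin D2, was at 376.1, 353.7 and 320.5 CPM against 145.8, 158.1 and 138.9 CPM (log2 1.25 ± 0.09). The pluripotency factor *Pou5f1* was called (log2 1.22, edgeR adjusted p = 0.0395), but its libraries overlapped, at 12.8, 10.3 and 4.20 CPM against 4.11, 4.88 and 2.72 CPM. It lost the call without any 1 of 5 libraries, with a log2 difference of 0.88 without Thy1+ replicate 1, 1.06 without Thy1+ replicate 2, 1.23 without c-Kit+ replicate 1, 1.41 without c-Kit+ replicate 2 and 0.99 without c-Kit+ replicate 3. 

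Several genes in wide use as markers of undifferentiated spermatogonia were not called. *Lin28a*, an RNA-binding protein, ranged from 121.0 to 161.4 CPM in Thy1+ and from 123.0 to 131.9 CPM in c-Kit+ libraries (log2 0.20), and *Sall4*, a zinc finger factor, from 149.7 to 204.9 CPM and from 141.9 to 169.7 CPM (log2 0.20). *Foxo1*, a forkhead factor, had an edgeR adjusted p of 0.0456 but a log2 difference of 0.24, under the minimum. *Neurog3*, a factor of transit-amplifying cells, was at 6.56, 9.75 and 5.78 CPM against 3.64, 7.01 and 6.17 CPM (log2 0.39, edgeR adjusted p = 0.319). Under germ cell scaling, where 40.1% of all genes were higher in Thy1+ cells, all 4 were called in that direction, with log2 differences of 0.73 for *Lin28a*, 0.73 for *Sall4*, 0.78 for *Foxo1* and 0.90 for *Neurog3*. The 3 progenitor genes higher in c-Kit+ cells were *Fgfr3*, a fibroblast growth factor receptor (log2 -0.78), *Taf4b*, a germ cell subunit of TFIID (log2 -0.66), and *Sox3*. *Sox3*, a factor needed for progenitors to differentiate, was at 73.0, 100.4 and 74.0 CPM against 142.0, 109.2 and 110.4 CPM (log2 -0.55, edgeR adjusted p = 0.0237), and it was not called without Thy1+ replicate 1 (-0.48), Thy1+ replicate 3 (-0.52) or c-Kit+ replicate 1 (-0.44). *Fgfr3* was not called without c-Kit+ replicate 2 (-0.72) or c-Kit+ replicate 3 (-0.75).

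**Figure D3:**
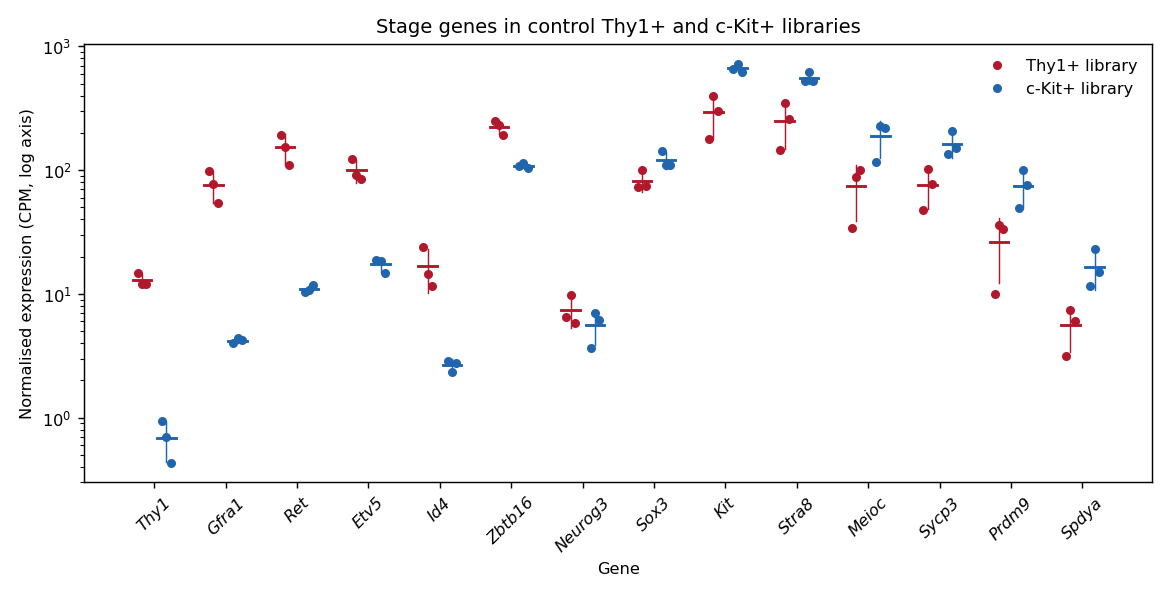
Normalised expression (CPM, log axis) of 14 stage genes in the 3 Thy1+ and 3 c-Kit+ control libraries. Points are libraries, horizontal lines means and vertical lines 1 SD. Gfra1 and Ret differ by over 3 on the log2 scale, Zbtb16 by 1.04, and Kit, Stra8, Meioc, Sycp3, Prdm9 and Spdya by -1.12 to -1.58 in the other direction.

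On the list for differentiation, 11 of 17 tested genes were higher in c-Kit+ cells, against 7.08% of all genes, and 1 in Thy1+ cells. The median log2 difference was -0.75. *Kit*, by which the cells were sorted, is 1 of the 11, so its direction is no independent result. *Uchl1* (log2 -0.64) is another of the 11, and whether each member is particular to differentiation was not tested. *Stra8*, which retinoic acid induces and which licenses entry into meiosis, was at 144.4, 349.5 and 258.7 CPM in Thy1+ libraries and at 526.6, 627.1 and 523.9 CPM in c-Kit+ libraries. The populations did not overlap, and the log2 difference was -1.16 ± 0.27 (edgeR quasi-likelihood adjusted p = 0.0112). *Meioc*, which with YTHDC2 drives germ cells from mitosis into meiosis, was at 34.2, 88.5 and 101.2 CPM against 115.8, 228.2 and 219.6 CPM (log2 -1.33 ± 0.39, edgeR adjusted p = 0.0270), but was not called without c-Kit+ replicate 2 (log2 -1.17) or c-Kit+ replicate 3 (log2 -1.22). In *Stra8* and *Meioc*, Thy1+ replicate 1 was the lowest library, as it was for *Kit*. These 3 genes were higher in c-Kit+ cells on the germ cell scale as well, by -0.67, -0.81 and -0.70 on the log2 scale for *Stra8*, *Meioc* and *Kit*.

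The transcription factors of this list differed less. *Sohlh2*, a helix-loop-helix factor that induces *Kit*, was at 66.7, 112.9 and 76.2 CPM against 152.3, 157.0 and 134.4 CPM (log2 -0.80), while its partner *Sohlh1* overlapped and was not called (log2 -0.43), but was called without Thy1+ replicate 2 (-0.63) or c-Kit+ replicate 3 (-0.53). *Dmrtb1*, which times the switch from mitosis to meiosis, was at 27.6, 52.8 and 59.4 CPM against 95.1, 83.4 and 103.7 CPM (log2 -1.02), and was not called without c-Kit+ replicate 3 (log2 -0.95). Its relative *Dmrt1*, a repressor of *Stra8* in spermatogonia, had an edgeR adjusted p of 0.0118 with a log2 difference of -0.48, just under the minimum, and was called without Thy1+ replicate 2 (-0.64), c-Kit+ replicate 2 (-0.51) or c-Kit+ replicate 3 (-0.52). The 1 member in the other direction was *Kitl*, the ligand of c-Kit, which Sertoli cells make in the testis. It was at 191.7, 89.5 and 119.3 CPM in Thy1+ and at 79.1, 45.3 and 70.9 CPM in c-Kit+ libraries (log2 1.04, edgeR adjusted p = 0.0224), and was not called without c-Kit+ replicate 2 (log2 0.83) or c-Kit+ replicate 3 (log2 1.08). Under germ cell scaling the differentiation list had 1 member called for Thy1+ cells and 3 for c-Kit+ cells.

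Levels per kilobase of exon allow different genes to be compared. Transcripts of genes of both stages were counted in both populations, though *Gfra1* and *Ret* were low in c-Kit+ libraries. Bulk levels do not show that cells of both stages were present. In Thy1+ libraries *Stra8* averaged 172.4 CPM per kb and *Kit* 56.6 CPM per kb, above *Zbtb16* (43.9 CPM per kb), *Etv5* (26.1 CPM per kb), *Gfra1* (23.7 CPM per kb) and *Ret* (20.8 CPM per kb). In c-Kit+ libraries *Stra8* averaged 384.3 and *Kit* 129.2 CPM per kb, with *Zbtb16* at 21.3, *Etv5* at 4.53, *Ret* at 1.5 and *Gfra1* at 1.3 CPM per kb. *Stra8* and *Kit* thus stood above these 4 genes in both populations.

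Genes that cells need for meiosis were higher in c-Kit+ cells across all 4 groups of the meiotic program. Chromosome axes are built from meiotic cohesins and axis proteins, programmed breaks are made along them, the breaks are repaired by recombination between homologs, and telomeres attach to the nuclear envelope so that homologs can find each other. All 14 cohesin and axis genes, 7 of 8 tested break formation genes (of 9 listed), 13 of 17 recombination genes and 5 of 6 telomere attachment genes were higher in c-Kit+ cells, against 7.08% of all genes, and 0 of these 45 were higher in Thy1+ cells. The medians of the groups were -0.97, -0.95, -0.65 and -1.25 on the log2 scale.

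*Sycp3*, which encodes a protein of the chromosome axis, was at 47.9, 102.1 and 76.6 CPM in Thy1+ libraries and at 134.3, 206.6 and 150.8 CPM in c-Kit+ libraries, without overlap (log2 -1.12 ± 0.26, edgeR quasi-likelihood adjusted p = 0.0116). *Hormad1*, an axis protein that keeps breaks directed to the homolog, was at 24.8, 52.5 and 36.1 CPM against 61.6, 108.9 and 77.8 CPM (log2 -1.13 ± 0.28), and the cohesin subunit *Rad21l* was at 9.69, 24.7 and 20.6 CPM against 29.9, 55.0 and 41.9 CPM (log2 -1.21 ± 0.34). *Rec8*, the other meiotic kleisin, differed by -0.68. All 4 were lowest in Thy1+ replicate 1 and highest in c-Kit+ replicate 2.

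Among break formation genes *Prdm9*, the histone methyltransferase that sets where breaks fall, was at 10.0, 35.8 and 33.7 CPM against 49.1, 99.9 and 75.9 CPM (log2 -1.5 ± 0.44, edgeR adjusted p = 0.0269). *Mei1*, a partner of the break machinery, was at 19.8, 44.8 and 44.0 CPM against 75.2, 94.4 and 85.9 CPM (log2 -1.24 ± 0.28). In both genes every c-Kit+ library exceeded every Thy1+ library. Among recombination genes *Dmc1*, the meiotic strand exchange protein, was at 34.4, 67.4 and 54.9 CPM against 82.6, 143.3 and 108.0 CPM (log2 -1.09 ± 0.26, edgeR adjusted p = 0.0127). The single-strand binding proteins *Meiob* (log2 -1.41) and *Spata22* (log2 -1.14) differed alike but at lower levels, no more than 15 and 25.6 CPM in any library. Members not called included *Mlh3* and *Rnf212*, which act late in recombination, and *Mnd1*, a cofactor of strand exchange, with log2 differences of -0.06, -0.37 and 0.18.

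The telomere group had the largest median. *Spdya*, an activator of CDK2 at meiotic telomeres, was at 3.18, 7.46 and 6.06 CPM in Thy1+ and at 11.6, 22.9 and 15.2 CPM in c-Kit+ libraries (log2 -1.58 ± 0.34, edgeR adjusted p = 0.00878), and *Majin*, which anchors telomeres to the inner nuclear membrane, was at 4.27, 11.8 and 8.88 CPM against 17.7, 26.7 and 22.5 CPM (log2 -1.43 ± 0.33). Neither overlapped. *Sun1*, a nuclear envelope protein of many cell types, was the member not called (log2 -0.06).

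With the replicate number as a block in the fit these counts were unchanged, at 14, 7, 13 and 5. The biological coefficient of variation was then 12.7% against 18.5%. Without the block the counts rested in part on single libraries. Of the 39 meiotic genes called, 36 had their highest c-Kit+ value in replicate 2 and 38 their lowest Thy1+ value in replicate 1. Without c-Kit+ replicate 2, 7 cohesin and axis, 2 break formation, 1 recombination and 2 telomere genes were called. They were 12, 4, 4 and 3 without c-Kit+ replicate 3, 10, 5, 3 and 3 without Thy1+ replicate 3, and 13, 7, 7 and 4 without Thy1+ replicate 1. The group medians kept their sign, from -1.19 to -0.79, from -1.12 to -0.72, from -0.86 to -0.53 and from -1.59 to -0.96. Without c-Kit+ replicate 2 the log2 differences of 6 of the 27 genes that lost the call, those with the values described above, were -1.24 for *Prdm9*, -0.87 for *Dmc1*, -0.88 for *Hormad1*, -0.97 for *Rad21l*, -1.0 for *Meiob* and -0.82 for *Spata22*. Under germ cell scaling the group medians also stayed below 0, at -0.45, -0.41, -0.13 and -0.74, against 0.58 for all genes, and 2, 2, 0 and 2 members were called higher in c-Kit+ cells, with 1 recombination gene, *Mnd1*, higher in Thy1+ cells.

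**Figure D4:**
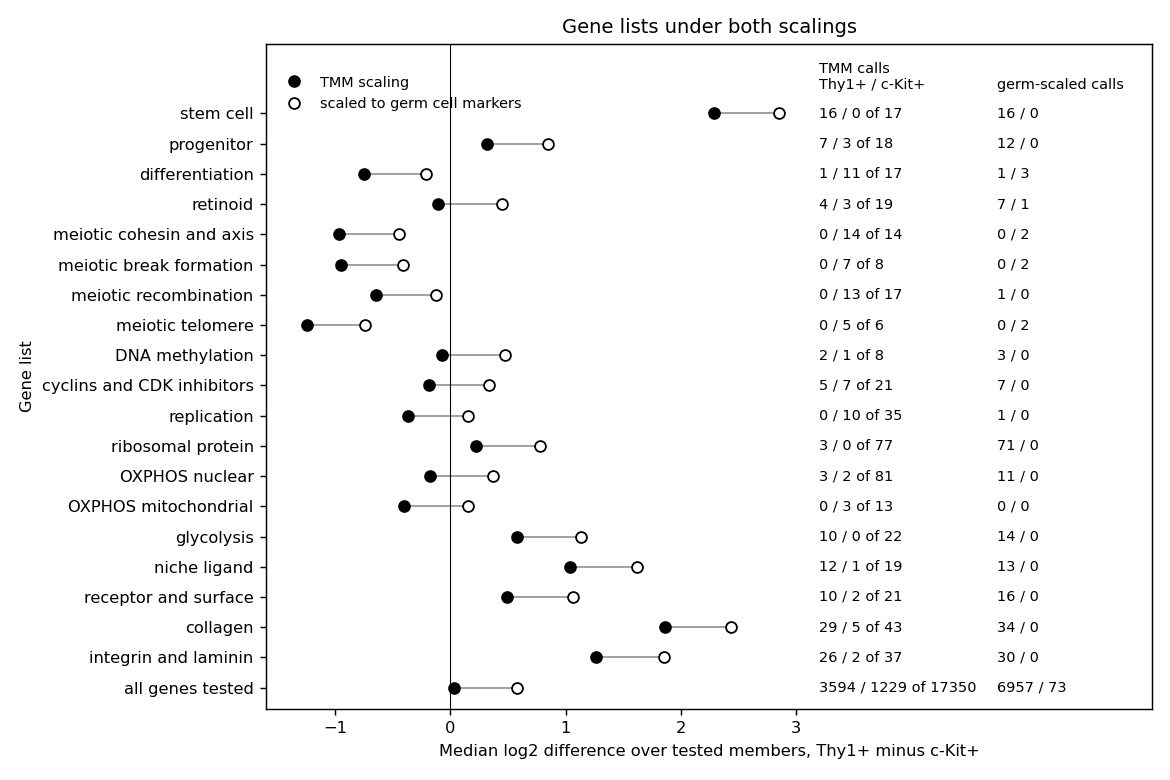
Median log2 difference, Thy1+ minus c-Kit+, over the tested members of 19 gene lists and over all genes tested. Filled points show TMM scaling, open points scaling to germ cell markers, and the numbers at the right members called higher in Thy1+ / c-Kit+ cells. Germ cell scaling moves all medians up. The stem cell median goes from 2.29 to 2.85 and the replication median from -0.37 to 0.16, while the 4 meiotic medians stay below 0 under both scalings.

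The promoters of 4 of the genes higher in c-Kit+ cells, and of *Gfra1* for the other direction, are shown so that promoters with and without the motifs can be compared. For *Prdm9* both starts are shown. Each run holds the 250 bases upstream of the RefSeq start on GRCm38.p6, 5′ to 3′ on the strand of the gene. Capitals mark the letters of 3 motifs on either strand: CACGTG, an E-box of the kind that helix-loop-helix factors bind, AGGTCA, the half-site of nuclear receptors such as those for retinoic acid, and GGCGGGAA, a site of E2F factors. The genes and motifs were chosen after the expression values were seen.
*Stra8*, chr6:34920698-34920947 (+ strand): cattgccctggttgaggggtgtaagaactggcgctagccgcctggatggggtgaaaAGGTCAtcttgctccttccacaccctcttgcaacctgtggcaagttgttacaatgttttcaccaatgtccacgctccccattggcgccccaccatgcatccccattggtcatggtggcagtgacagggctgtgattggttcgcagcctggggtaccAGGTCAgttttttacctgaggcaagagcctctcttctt
*Sycp3*, chr10:88459337-88459586 (+ strand): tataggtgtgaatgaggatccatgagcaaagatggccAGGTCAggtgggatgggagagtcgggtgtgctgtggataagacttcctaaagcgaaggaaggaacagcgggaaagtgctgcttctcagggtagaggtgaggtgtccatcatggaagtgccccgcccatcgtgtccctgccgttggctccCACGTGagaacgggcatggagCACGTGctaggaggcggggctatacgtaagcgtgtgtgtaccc
*Hormad1*, chr3:95559427-95559676 (+ strand): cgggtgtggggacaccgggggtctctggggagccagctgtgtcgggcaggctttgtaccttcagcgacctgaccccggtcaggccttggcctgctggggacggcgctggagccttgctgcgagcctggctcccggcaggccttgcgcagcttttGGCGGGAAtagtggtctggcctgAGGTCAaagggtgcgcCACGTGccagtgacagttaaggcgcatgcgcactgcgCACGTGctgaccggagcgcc
*Prdm9*, start 1, chr17:15563332-15563581 (- strand): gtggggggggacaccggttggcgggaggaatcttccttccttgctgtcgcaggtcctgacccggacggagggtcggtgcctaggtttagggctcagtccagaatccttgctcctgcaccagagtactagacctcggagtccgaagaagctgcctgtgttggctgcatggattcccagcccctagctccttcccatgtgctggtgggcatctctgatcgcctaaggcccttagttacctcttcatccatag
*Prdm9*, start 2, chr17:15564355-15564604 (- strand): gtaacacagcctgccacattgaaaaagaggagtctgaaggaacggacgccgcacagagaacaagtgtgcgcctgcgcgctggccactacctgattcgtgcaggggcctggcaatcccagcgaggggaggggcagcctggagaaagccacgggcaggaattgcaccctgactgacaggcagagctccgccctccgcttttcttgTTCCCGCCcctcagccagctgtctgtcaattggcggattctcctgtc
*Gfra1*, chr19:58455399-58455648 (- strand): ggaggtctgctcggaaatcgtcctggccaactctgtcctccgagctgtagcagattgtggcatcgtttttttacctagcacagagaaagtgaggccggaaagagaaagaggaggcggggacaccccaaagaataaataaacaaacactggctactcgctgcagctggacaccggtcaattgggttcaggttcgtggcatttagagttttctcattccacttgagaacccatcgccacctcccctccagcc
In the *Sycp3* promoter CACGTG began 64 and 43 bases before the start, and in that of *Hormad1* 57 and 20 bases before it, with the same motifs at its second start, 2 bases further on. Of the *Prdm9* promoters 1 held none of the motifs and 1 held the complement of GGCGGGAA, 47 bases before the start, and neither held CACGTG. The *Stra8* promoter held AGGTCA at 194 and 38 bases before the start, and that of *Gfra1* held none of the motifs. A promoter was found for 37 of the 45 meiotic genes tested, with 44 starts, of which 9 (20.5%) held CACGTG and 7 (15.9%) GGCGGGAA. The share of all 16483 promoters of tested genes was 7.97% for CACGTG and 3.15% for GGCGGGAA. Among genes higher in c-Kit+ cells it was 9.76% and 3.9%, and among genes higher in Thy1+ cells 5.99% and 2.13%. AGGTCA occurred in 15.9% of the meiotic promoters and in 11.4% of those tested, and the cyclic AMP response element TGACGTCA in 0 of 44 and 2.37%. The 13 promoters found for called stem cell genes held CACGTG and GGCGGGAA in 0 cases. These are counts of letters and no test was made on them.

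Retinoid genes, which make, bind, store and degrade the signal for differentiation, had members in both directions: of 19 tested, 4 were higher in Thy1+ and 3 in c-Kit+ cells, against 20.7% and 7.08% of all genes, so that the Thy1+ share was near the background (median -0.11, and 0.44 under germ cell scaling, with 7 and 1 called). *Cyp26b1*, which degrades retinoic acid, was at 824.5, 645.1 and 1005 CPM in Thy1+ libraries and at 299.9, 266.8 and 258.4 CPM in c-Kit+ libraries, without overlap (log2 1.58). *Aldh1a3*, which makes retinoic acid, was at 51.8, 40.8 and 56.1 CPM against 4.99, 6.67 and 5.67 CPM (log2 3.10 ± 0.17), and the nuclear receptor *Rxrg* was low, at 0.858 to 1.35 CPM against 0.231 to 0.318 CPM (log2 1.99). *Aldh1a1*, a related synthesis enzyme, ran the other way, at 481.7, 348.5 and 462.2 CPM against 775.8, 723.5 and 829.2 CPM (log2 -0.85). *Crabp1*, a cytosolic retinoic acid binding protein, was at 60.4, 101.4 and 79.2 CPM against 181.1, 166.3 and 164.2 CPM (log2 -1.09 ± 0.17, edgeR adjusted p = 0.00159), and was the 1 member still called higher in c-Kit+ cells under germ cell scaling (log2 -0.58). The receptor of spermatogonia, *Rarg*, overlapped, at 42.0 to 55.0 CPM against 45 to 55.7 CPM (log2 -0.06). The other called members were *Lrat*, which stores retinol as esters (log2 1.49), and the receptor *Rarb* (log2 -0.92), which lost the call without any 1 of 4 libraries, with -1.07 to -0.70. Without Thy1+ replicate 2, 5 members were higher in c-Kit+ cells. *Aldh1a1* and *Cyp26b1* are known from somatic cells of the testis as well, and the part of such cells was not tested.

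Of 8 DNA methylation genes tested 2 were higher in Thy1+ cells and 1 in c-Kit+ cells, against 20.7% and 7.08% of all genes, so that the Thy1+ share was near the background. *Dnmt3b*, a de novo methyltransferase, was higher in c-Kit+ cells, at 109.3, 193.6 and 142.8 CPM against 275.2, 275.4 and 252.6 CPM (log2 -0.85 ± 0.18, edgeR adjusted p = 0.00780). Its relative *Dnmt3a* differed by 0.22 and was not called. The demethylating dioxygenases *Tet1*, at 42.0, 29.9 and 50.8 CPM against 12.4, 12.2 and 10.2 CPM (log2 1.82), and *Tet2*, at 54.9, 38.2 and 56.2 CPM against 18.7, 15.1 and 16.7 CPM (log2 1.56), were higher in Thy1+ cells without overlap. The third enzyme of this family, *Tet3*, ran the other way, at 215.9, 231.0 and 249.3 CPM against 328.2, 302.9 and 282.5 CPM, also without overlap. Its edgeR adjusted p was 0.0119, but its log2 difference of -0.39 was under the minimum, and it became 0.16 under germ cell scaling. Without Thy1+ replicate 2, 3 members were higher in c-Kit+ cells.

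Of 21 genes for cyclins, cyclin-dependent kinases (CDKs) and CDK inhibitors 5 were higher in Thy1+ cells and 7 in c-Kit+ cells, against 20.7% and 7.08% of all genes. The Thy1+ share was thus near the background. Cyclins and inhibitors stood on both sides. Beside *Ccnd2*, the Thy1+ side held the inhibitors *Cdkn1b* (p27), at 51.6, 34.5 and 44.3 CPM against 14.1, 9.70 and 11.5 CPM (log2 1.89), and *Cdkn1c* (p57), at 73.2, 59.3 and 70.9 CPM against 20.8, 20.5 and 18.3 CPM (log2 1.77). It also held *Cdkn1a* (p21, log2 1.28) and *Ccnd3*, which encodes cyclin D3 (log2 0.99). The c-Kit+ side held the inhibitor *Cdkn2a* (log2 -0.73), and also *Ccnb3* (log2 -1.19) and *Ccna1* (log2 -1.13), cyclins of meiosis, which lost their calls without c-Kit+ replicate 2 among other libraries, at -0.90 and -1.01. The other members on this side were the kinase *Cdk6* (log2 -0.95) and the cyclins *Ccne2* (log2 -1.02), *Ccnb1* (log2 -0.52) and *Ccna2* (log2 -0.50). The c-Kit+ side held 3 members without c-Kit+ replicate 2, and 4 without Thy1+ replicate 1 or Thy1+ replicate 3. The proliferation marker *Mki67* was at 339.9, 512.3 and 450.8 CPM against 539.8, 656.7 and 654.7 CPM (log2 -0.51, edgeR adjusted p = 0.0304), but 0.01 under germ cell scaling, and it was not called without Thy1+ replicate 1, Thy1+ replicate 3, c-Kit+ replicate 2 or c-Kit+ replicate 3, with log2 differences from -0.58 to -0.37. Of 35 DNA replication genes 10 were higher in c-Kit+ cells and 0 in Thy1+ cells, against 7.08% and 20.7% of all genes. Their median of -0.37 became 0.16 under germ cell scaling, where 0 were higher in c-Kit+ cells and 1, *Pola1*, in Thy1+ cells. *Gmnn*, the inhibitor of origin licensing, was at 41.6, 73.7 and 56.2 CPM against 111.2, 111.0 and 93.8 CPM (log2 -0.88), and the flap endonuclease *Fen1* was at 70.0, 110.9 and 91.6 CPM against 146.1, 149.1 and 150.8 CPM (log2 -0.71). The number called ranged from 5 (without Thy1+ replicate 1 or c-Kit+ replicate 2) to 19 (without Thy1+ replicate 2).

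Of 22 genes of glycolysis and glucose uptake 10 were higher in Thy1+ and 0 in c-Kit+ cells, against 20.7% and 7.08% of all genes, with a median of 0.58. The background is the same for the lists that follow. *Slc2a3*, the glucose transporter GLUT3, was at 37.3, 27.5 and 27.7 CPM against 12.9, 10.9 and 12.9 CPM (log2 1.33), and *Pdk1*, a kinase that closes the entry of pyruvate into the mitochondrion, was at 110.0, 72.5 and 53.6 CPM against 40.7, 30.0 and 35.3 CPM (log2 1.16). Neither overlapped. Few nuclear genes of oxidative phosphorylation were called, with 3 higher in Thy1+ (*Cox4i2*, *Cox7b* and *Ndufv3*) and 2 in c-Kit+ cells (*Ndufa1* and *Atp5pb*) of 81 tested. The Thy1+ count was 1 without c-Kit+ replicate 2, the c-Kit+ count was 7 without Thy1+ replicate 2 and 4 without Thy1+ replicate 3, and under germ cell scaling the counts were 11 and 0, against 40.1% and 0.421% of all genes. The largest was *Cox4i2*, a hypoxia-induced subunit of cytochrome c oxidase, at 10.0, 4.19 and 6.48 CPM against 0.352, 0.577 and 0.289 CPM (log2 4.07). Of 13 mitochondrial transcripts 3 were higher in c-Kit+ cells, *ND3* (log2 -0.71), *COX3* (log2 -0.54) and *COX2* (log2 -0.52), while 0 were called without Thy1+ replicate 3 or c-Kit+ replicate 1, 1 without c-Kit+ replicate 2, 6 without Thy1+ replicate 1 or c-Kit+ replicate 3, and 0 under germ cell scaling. Of 77 ribosomal protein genes tested 3 were higher in Thy1+ cells, *Rps4x*, *Rpl10* and *Rpl11*, but 71 under germ cell scaling, against 40.1% of all genes, where their median moved from 0.22 to 0.78 and that of all genes to 0.58. *Rps4x*, an X-linked subunit gene, was at 229.3, 180.3 and 223.6 CPM against 71.8, 65.7 and 74.6 CPM (log2 1.58).

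Genes for signals to spermatogonia and for the matrix around them were mostly higher in the Thy1+ libraries, as stromal and myoid markers were. Of 19 niche ligands 12 were higher in Thy1+ and 1 in c-Kit+ cells, and this and the 3 lists after it stand against 20.7% and 7.08% of all genes. *Igf1*, insulin-like growth factor 1, was at 624.4, 511.6 and 665.3 CPM against 62.0, 56.8 and 37.0 CPM (log2 3.53), and the chemokine *Cxcl12* was at 414.0, 318.1 and 434.7 CPM against 41.9, 42.6 and 30.3 CPM (log2 3.35). The 1 ligand higher in c-Kit+ libraries was *Gdnf*, made by Sertoli and myoid cells, at 9.58, 6.06 and 6.6 CPM against 13.3, 10.8 and 12.0 CPM (log2 -0.69, edgeR adjusted p = 0.0291). It was not called without Thy1+ replicate 3 or any 1 c-Kit+ library, with log2 differences from -0.77 to -0.65. The sums of Sertoli markers overlapped between the populations. Of 43 collagen genes tested 29 were higher in Thy1+ and 5 in c-Kit+ cells (median 1.86). *Col15a1*, of basement membranes, was at 685.7, 449.9 and 657.9 CPM against 54.6, 45.2 and 29.2 CPM (log2 3.80), while *Col22a1* (log2 -0.78) and *Col14a1* (log2 -0.78) were the largest in the other direction, beside *Col11a1*, *Col11a2* and *Col7a1*. Of 37 integrin and laminin genes 26 were higher in Thy1+ cells, led by the integrins *Itga1* (log2 2.96) and *Itga4* (log2 2.95), and 2 in c-Kit+ cells, *Itgb4* (log2 -0.63) and *Lama5* (log2 -0.55). Of 21 receptor and surface genes 10 were higher in Thy1+ cells, among them *Ly6a*, the antigen Sca-1 (log2 3.25). *Thy1*, by which the cells were sorted, is another of the 10, so its direction is no independent result. The 2 higher in c-Kit+ cells were *Acvr2b*, an activin receptor (log2 -0.59), and *Epcam*, an adhesion molecule (log2 -0.56). On the c-Kit+ side, 2 to 6 collagen, 0 to 2 integrin and laminin, and 0 to 2 receptor and surface genes were called with 1 library left out, the fewest of each without Thy1+ replicate 1. The part of stromal cells in these lists was not tested.

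Over all genes, in the lists or not, the largest differences above 10 CPM belonged to genes of several cell types. Besides *Thy1* and *Gfra1*, those higher in Thy1+ cells included *Gzmc*, a granzyme, at 20.5, 14.6 and 17 CPM against 0.646, 0 and 0 CPM, *Rgs5*, a regulator of G protein signalling known from pericytes, at 79.4, 40.2 and 38.2 CPM against 0.852, 0.693 and 0.608 CPM (log2 6.19), its relative *Rgs4* (log2 4.28), the lectin *Colec11* (log2 4.53) and *Tcl1*, a co-activator of AKT known from pluripotent cells, at 27.2, 19.9 and 13.1 CPM against 1.12, 0.924 and 0.753 CPM (log2 4.43). By difference in mean CPM the leading genes were *Col3a1*, *Col1a2*, *Col1a1*, *Ltbp4* and *Dcn*, all of extracellular matrix. In the c-Kit+ cells the largest were *Bc1*, a small RNA polymerase III transcript, at 11.9, 12.1 and 12.1 CPM against 58.5, 57.0 and 22.8 CPM (log2 -1.94), *Serpina3g*, a serpin, at 5.52, 8.40 and 7.24 CPM against 26.6, 25.9 and 21.2 CPM (log2 -1.80), the steroidogenic enzyme *Cyp17a1* (log2 -1.74), renin (*Ren1*, log2 -1.71), *Oca2*, a transporter of melanosomes (log2 -1.62), the cystatin *Cst8* (log2 -1.58), *Gal3st1*, which sulfates the glycolipid of male germ cells (log2 -1.58), and *Spdya*. *Cyp17a1* marks Leydig cells, whose markers were higher in the c-Kit+ libraries, and it was not called without Thy1+ replicate 2 (-1.57) or c-Kit+ replicate 3 (-1.21). By difference in mean CPM the germ cell RNA-binding protein *Dazl*, the tubulin *Tubb4b*, *Tex15*, which acts in piRNA-directed silencing, *Kit* and *Aldh1a1* led. *Dazl* lost the call without c-Kit+ replicate 2 (-0.62), and so did *Tex15* (-0.71).

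The 6 libraries of mutant mice (*Ddx4-Cre/Chd8F/-*, with *Chd8* deleted in germ cells) give the same contrast in samples that the control comparison did not use. Of 17346 genes tested there, 2653 (15.3%) were higher in Thy1+ and 872 (5.03%) in c-Kit+ cells. Of 3567 genes higher in control Thy1+ cells and tested in mutants, 3489 (97.8%) had the same sign in mutants and 2345 (65.7%) were also called, with 0 called in the opposite direction. Of 1214 genes higher in control c-Kit+ cells, 1187 (97.8%) had the same sign, 463 (38.1%) were also called and 2 were called in the opposite direction, *Msh5* (0.79 in mutants), of meiotic recombination, and *Pbx3* (1.19 in mutants), a homeodomain factor. Over all 16980 genes tested in both, 81.7% had the same sign. Of the stem cell genes 11 were called in mutants, with a median of 1.21, and single members differed by less there, with log2 differences of 3.45 for *Gfra1*, 2.72 for *Ret*, 1.20 for *Etv5* and 1.55 for *Id4*. *Kit* (-1.19) and *Stra8* (-1.06) differed by similar amounts in mutants as in controls, and the meiotic groups had 7, 4, 2 and 1 members called higher in c-Kit+ cells. In a fit of all 12 libraries the contrast differed between genotypes for 0 of 18002 genes at an edgeR adjusted p under 0.05, with 1804 at an unadjusted p under 0.05 and a smallest adjusted p of 0.235. With the replicate number as a block in that fit, 446 genes passed. With the block the edgeR adjusted p was 0.0162 for *Etv5* and 0.0419 for *Ret*, but 0.184 for *Gfra1* and 0.0594 for *Id4*. For *Etv5* and *Ret* the result thus depended on the block, while *Gfra1* and *Id4* passed in neither fit. The replicate numbers did not meet the limit for pairing across all 4 groups.

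**Figure D5:**
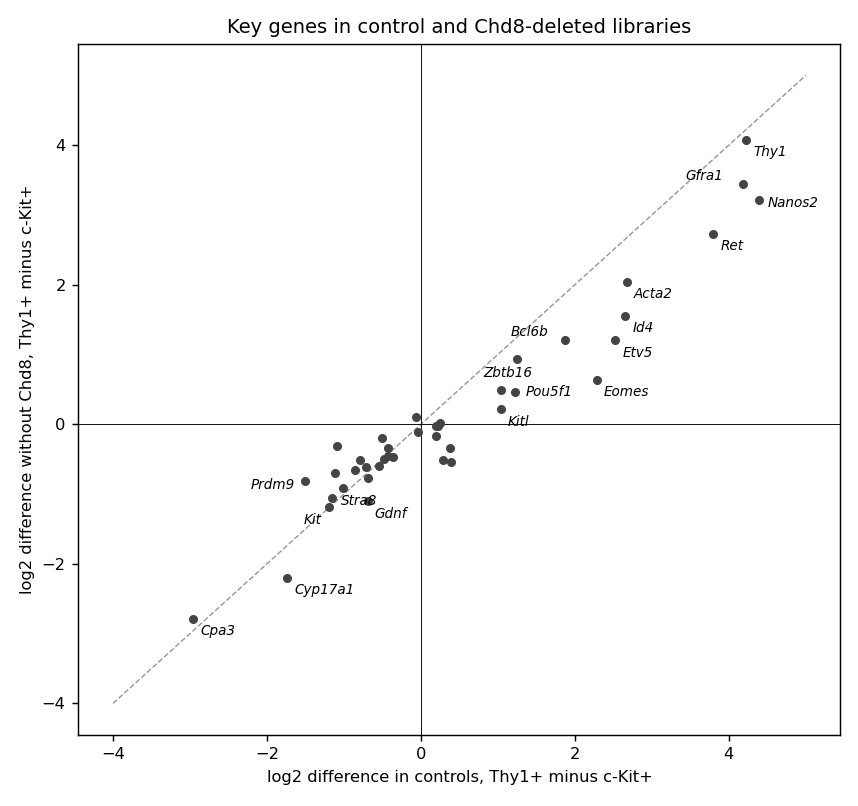
Log2 difference, Thy1+ minus c-Kit+, of the 41 key genes in mutant libraries (vertical axis) against that in control libraries (horizontal axis). Each point is a gene and the dashed line marks equal differences. Gfra1, Ret, Etv5 and Id4 lie below the line, while Thy1 (4.22 in controls, 4.08 in mutants) and Kit (-1.19 in both) lie near it.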

How the data were processed

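RNA-seq counts of 6 control libraries were analysed, with 3 of Thy1+ and 3 of c-Kit+ cells at 10 dpp, together with the 6 mutant libraries for 1 comparison. The authors used Trimmomatic 0.39 for trimming, HISAT2 2.1.0 for alignment of the read pairs to mm10, and featureCounts (2.0.3 in the table header) for counting on RefSeq exons. Deposited were the unscaled counts of each gene and library. The counting command set neither strand nor fragments, so both reads of a fragment were counted (65.6% to 68.3% of values from 1 to 19 were even), and genes that overlap on either strand can share reads. The table has 27179 genes, of which 1904 had no symbol and held 0.533% to 0.729% of the counts of a library.

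Both populations were compared by the quasi-likelihood test of edgeR 4.0.16 (R 4.3.3), with filterByExpr, TMM factors and Benjamini-Hochberg adjustment over all 17350 genes tested. This replaces the exact test of the study's methods, whose thresholds were kept (adjusted p under 0.05, absolute log2 difference over 0.5). The biological coefficient of variation was 18.5%. Printed CPM are TMM-normalised. In simulated counts for this comparison (17123 genes tested), 171 of 200 genes changed by a log2 of 1.5 were recovered and 13 unchanged genes were called. With so few genes changed, against 3594 and 1229 called in the data, the simulation cannot show how calls depend on the scaling.

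Named genes are 41 key genes, the 8 with the largest log2 difference in each direction (at least 10 CPM in the higher population, no overlap of libraries), the 5 with the largest CPM difference, and the 2 with the largest log2 difference per list and direction. Others were named after their values were seen, mostly where a count was small. The comparison, gene lists and marker lists were chosen with earlier results of these data known. Listed genes not matched in the table (such as Ankrd31, Dnmt3c and Gcna) were not analysed here, and single genes that this rule names are not reported here.

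Alternatives were the edgeR exact test, DESeq2 1.42.0, its size factors in edgeR, library size only, scaling to the summed counts of 9 germ cell markers, no filter on low counts, a filter at 1 CPM in 3 libraries, a joint fit with the mutants (12 libraries), other fold minimums, a replicate block, and the omission of single libraries, where the remaining pair stands for its group. The tests of the difference between genotypes with the block and the promoter motifs (RefSeq, GRCm38.p6) were added after seeing the data.

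Libraries with the same replicate number deviated together from their group means (correlations of 0.298, 0.240 and 0.134, other pairs -0.279 to 0.0867), which passed the limit of 0.1 for treating them as paired. The printed SE, adjusted p-values and calls come from the fit without this block unless it is named. The fits with a library left out held no block either, and each broke a pair. Whether calls lost there would remain under the block was not tested. With the replicate number as a block 3777 and 1454 genes were called. The edgeR adjusted p was then 1.34e-04 for *Prdm9* and 1.46e-05 for *Dmc1*, against 0.0269 and 0.0127 without it. It did not fall for every gene, and for *Rxrg* it was 0.00823 against 0.00583.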

Additional observations from a re-analysis of the deposited data

How the results depend on the processing

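Against 3594 genes on the Thy1+ side and 1229 on the c-Kit+ side, germ cell scaling gave 6957 and 73, and a minimum of 1 on the log2 difference gave 2376 and 307. Library size only gave 1851 genes higher in c-Kit+ cells, and no fold minimum 2357. With 1 library left out the counts ranged from 2917 to 3645 in Thy1+ and from 625 (without c-Kit+ replicate 2) to 2002 (without Thy1+ replicate 2) in c-Kit+ cells. Under the other alternatives both counts stayed within 1.5 times. With the replicate block they were 3777 and 1454, and 0 of 120 named genes had another call. Several lists gained calls under the block, and no list lost one. On the Thy1+ side T cell markers went from 5 to 6, Sertoli from 0 to 1, progenitor genes from 7 to 8 and glycolysis from 10 to 11. On the c-Kit+ side Leydig markers went from 5 to 7, mast cell from 4 to 6, T cell from 0 to 1, cyclins and inhibitors from 7 to 8 and mitochondrial transcripts from 3 to 4, and the study's gene sets gained calls too. Treating the replicate number as a block in the fit of 12 libraries, added after seeing the data, gave 446 genes that differed between genotypes against 0 without it; there the same-number correlations ran from 0.0049 to 0.448 and did not all pass 0.1. The cause of these changes was not tested.

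Under germ cell scaling 8 of 120 named genes changed sign. *Mki67* (0.014), *Atp5pb* (0.011) and *Chd8* (0.52) were called on only 1 of the scales, and *Ddx4* (0.17), *Dmrt1* (0.04), *Sohlh1* (0.09), *Rarg* (0.48) and *Ccnd1* (0.09) on neither. In the other settings 0 called genes reversed. Of the 107 named genes that were called, 29 lost the call with at least 1 library left out, 3 of 54 higher in Thy1+ and 26 of 53 higher in c-Kit+ cells, and 25 of these without c-Kit+ replicate 2. Of those not called, 4 gained a call for c-Kit+ cells with 1 library left out, *Sohlh1* and *Dmrt1* as described, and *Ddx4* (-0.56) and *Ccnd1* (-0.57) without Thy1+ replicate 2. Germ cell scaling ended 33 calls and added 6. With 3 libraries a group, differences near the minimum of 0.5, such as those of *Sox3* and *Atp5pb*, passed or failed with single libraries. The fits with a library left out held no replicate block.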

Other observations

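The X chromosome, which is silenced later in meiosis, held 710 tested genes, of which 180 (25.4%) were higher in Thy1+ and 81 (11.4%) in c-Kit+ cells, against 20.7% and 7.08% of all genes. Its median log2 difference was 0.14. No test was made of this share.

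The gene sets that the study used for its genotype comparisons held members of both directions. Of 99 tested genes of the set from stem cells to the start of differentiation, 12 were higher in Thy1+ and 23 in c-Kit+ cells, against 20.7% and 7.08% of all genes. The 23 became 41 without Thy1+ replicate 2, and germ cell scaling gave 32 and 1, where all genes had 40.1% and 0.421%, as they did for the germ cell scaled counts of the other sets. Of 97 tested genes of the set from differentiation to meiotic entry, 4 and 29 were called, with 19 higher in c-Kit+ cells without c-Kit+ replicate 2 and 44 without Thy1+ replicate 2, and 18 and 3 under germ cell scaling. Of 199 E2F targets, 6 and 46 were called, with a median of -0.34 that became 0.19 under germ cell scaling, where 27 were higher in Thy1+ and 0 in c-Kit+ cells. The number of E2F targets higher in c-Kit+ cells was 24 without Thy1+ replicate 1, 30 without c-Kit+ replicate 2 and 96 without Thy1+ replicate 2. The study applied these sets to the same libraries, so they are not independent evidence of a direction.

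Of 99 tested genes of the set for meiotic prophase I, 9 were higher in Thy1+ and 21 in c-Kit+ cells, with 35 of the latter without Thy1+ replicate 2, 13 without c-Kit+ replicate 2, and 27 and 4 under germ cell scaling. Of 1199 genes of the cell cycle process, 179 and 207 were called, with 310 higher in c-Kit+ cells without Thy1+ replicate 2, 127 without Thy1+ replicate 1 and 90 without c-Kit+ replicate 2, and 411 and 13 under germ cell scaling.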
